A study of Mus musculus with 6 samples.

Results

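Interleukin receptor genes were examined in lung cells enriched for endothelial cells (ECs) from WT and leene-KO mice. They were taken as the genes whose symbol starts with Il, a number and r, together with Il6st, Csf2rb and Csf2rb2, which encode receptor chains shared between cytokines. Of 47729 genes counted, 44 met this rule by name and 38 of these held at least 10 counts over the 6 libraries. Il1rapl1 came in with 12 counts, while Il13ra2 (6 counts), Il31ra (5 counts) and Il17rb (1 count) stayed below the minimum. Il23r, Il1rapl2 and Il11ra2 had 0 counts in every library. Taken as a rough upper limit for a count of 0, 3 counts would be 0.0734 to 0.14 CPM (counts scaled to library size). One of the 38, Il1rn, encodes the IL-1 receptor antagonist, a secreted ligand that the symbol rule brings in although it is not a receptor.

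The libraries came from CD31-enriched lung cells of male mice, 14 weeks old, given AngII at 1000 ng/kg/min by osmotic pump for 2 weeks. There were 3 WT and 3 KO libraries, and no library of mice without AngII. The KO is a whole-body deletion of the region that encodes leene, a long noncoding RNA, and the other noncoding RNAs within it, made by CRISPR-Cas9 in C57BL6 mice, so cells other than ECs lack it as well. The labels describe the cells of 3 mice per group as pooled before RNA extraction, so a library may hold 1 mouse or several, and n counts libraries throughout. The methods of the study name CD144, another EC surface protein, for the sorting.

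Interleukin receptors pair a chain that binds one cytokine with a chain that several cytokines share. The common gamma chain (Il2rg) serves IL-2, IL-4, IL-7, IL-9, IL-15 and IL-21 on lymphocytes, the common beta chain (Csf2rb) serves IL-3, IL-5 and GM-CSF on myeloid cells, and gp130 (Il6st) serves IL-6 and IL-11 on most cells. These chains carry JAK kinases and signal through STAT factors, while the receptors of IL-1, IL-18, IL-33 and IL-36 signal through MyD88. In vessels, ECs answer IL-1, IL-4, IL-6 and IL-13 by changing adhesion molecules and barrier function. The genes were sorted by this use into lymphoid (12), myeloid (8), endothelial or wide (10) and epithelial, neural or other use (8).

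Counts per library totaled 24464324 to 35184063, and mitochondrial genes took 37.4% to 54.5% of them. One CPM, on library sizes scaled by edgeR's TMM method, stood for 21.4 to 40.9 counts. Of the 10 EC markers checked, all were tested and none was at 0, and their summed level was 1611 to 2998 CPM in WT against 1974 to 3175 CPM in KO libraries. WT replicate 2 stood apart from the other WT libraries on the first principal component, at 22.2 against -63.4 and -29.4, with the KO libraries at 13.4 to 35.4. The 5 alveolar type II markers also had WT replicates 1 and 3 below the rest, with summed levels of 4934, 46390 and 14400 CPM in WT, in replicate order, against 36570 to 44950 CPM in KO. In every library these markers summed to more than the 10 EC markers, so the levels given here are not those of ECs alone. Leene itself is not in the annotation used for counting and was not analysed here.

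The stretches of DNA just before the start sites of 3 lymphoid receptor genes are given first, since Il21r and Il9r are the receptor genes that DESeq2 called and Il7r uses the same shared chain. Each run is the 250 bases before the start (RefSeq, GRCm38.p6, 5′ to 3′ on the strand of the gene), and capitals mark a STAT element, TTCNNNGAA, searched on both strands. The Il21r run lies at chr7:125603179-125603428 on the plus strand, the Il9r run at chr11:32200280-32200529 on the minus strand and the Il7r run at chr15:9529877-9530126 on the minus strand.
Il21r: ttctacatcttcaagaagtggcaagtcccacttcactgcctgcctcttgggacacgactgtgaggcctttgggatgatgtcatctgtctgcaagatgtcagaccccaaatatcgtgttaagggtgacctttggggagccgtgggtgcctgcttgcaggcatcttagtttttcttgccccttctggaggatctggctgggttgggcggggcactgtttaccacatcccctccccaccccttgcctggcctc
Il9r: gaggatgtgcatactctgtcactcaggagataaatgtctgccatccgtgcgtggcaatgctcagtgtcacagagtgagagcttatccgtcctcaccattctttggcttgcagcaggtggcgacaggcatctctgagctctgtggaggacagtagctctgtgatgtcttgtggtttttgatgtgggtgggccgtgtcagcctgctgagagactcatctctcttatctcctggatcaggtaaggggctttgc
Il7r: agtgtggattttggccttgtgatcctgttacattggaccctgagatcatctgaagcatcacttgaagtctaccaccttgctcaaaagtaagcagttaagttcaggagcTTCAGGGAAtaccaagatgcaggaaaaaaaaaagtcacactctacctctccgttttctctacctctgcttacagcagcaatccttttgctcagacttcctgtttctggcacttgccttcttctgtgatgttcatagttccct
Neither the Il21r nor the Il9r window held a match, and the Il7r window held 1. RefSeq starts were found for 30 of the 38 genes, with 38 windows in all, of which 5 held the element (13.2%), in Csf2rb2, Il12rb2, Il18r1, Il1r2 and Il7r. Over all 32536 windows of this length the share was 7.04%. An ETS element, CCGGAAG, was found in 3 of the 38 windows (7.89%, in Il15ra, Il20ra and Il2rg) against 6.95% of all. None of the 3 printed runs held it, and a match is a run of letters, not a binding site.

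Genes of endothelial or wide use held the highest 3 levels among the 38 genes in WT. On a per-length scale (CPM per kb of counted exon), Il13ra1, a chain of the receptor for IL-4 and IL-13, was at 23.0 ± 13.9 (SD, n = 3) and Il6st, which encodes gp130, at 20.7 ± 7.76 in WT, and the library ranges of these neighbours overlapped. Il4ra, the IL-4 binding chain, came next at 12.5 ± 3.76, and its range lay below that of Il6st. It was followed by Il3ra (9.05 ± 4.0), the IL-3 binding chain, Il10rb (8.41 ± 3.44), Il18r1 (8.39 ± 5.38) and Il2rg (6.79 ± 4.32). From Il4ra downward every gene overlapped its next neighbour in WT, so the order within that stretch is not settled. The lowest were Il12rb1, Il5ra, Il1rapl1 and Il2ra, each at 0.0125 CPM per kb or less in WT.

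**Figure D1:**
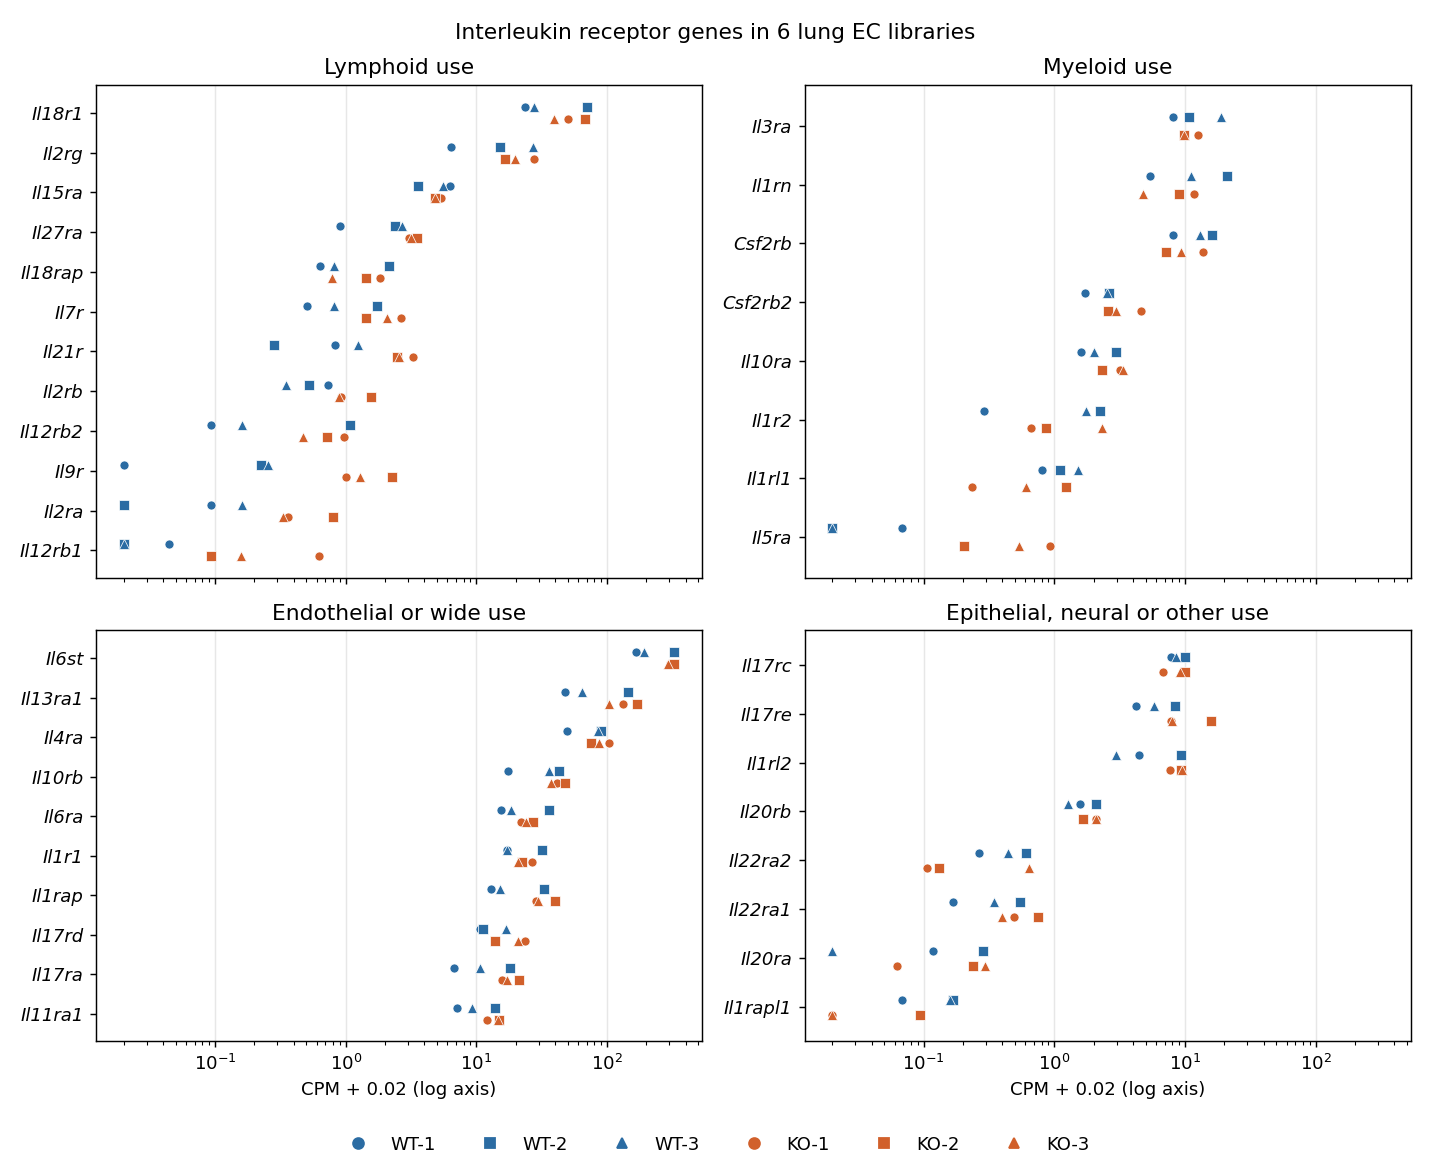
Level of each of the 38 interleukin receptor genes in the 3 WT libraries (blue) and 3 KO libraries (orange), in CPM plus 0.02 on a log axis, with genes grouped by use and the symbol shape giving the replicate number. Il6st and Il13ra1 sit highest. Of the genes lowest in WT, Il9r, Il2ra, Il12rb1 and Il5ra lie further right in every KO library. Il20ra and Il1rapl1, also among the lowest, overlap between the groups, and the mean of Il1rapl1 is lower in KO.

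Differences between KO and WT were asked for with edgeR's quasi-likelihood test over the 14625 genes that passed its filter on low counts, of which 33 were interleukin receptor genes. Il2ra, Il12rb1, Il5ra, Il20ra and Il1rapl1 did not pass the filter. At an adjusted p under 0.05 (Benjamini-Hochberg over all genes tested), 0 of the 33 were called, against 0.109% of all genes tested. At an unadjusted p under 0.05, 3 of the 33 were higher in KO (Il9r, Il21r and Il17rd) and 0 were lower, where 5.62% of all genes tested were higher. DESeq2, the tool named in the methods of the study, called 2 of the 35 that it gave an adjusted p, Il21r and Il9r, both higher in KO, against 0.569% of all genes called higher. On simulated counts DESeq2 made more false calls than edgeR, 64 among 228 calls against 6 among 150. Those counts were drawn gene by gene with the spread that edgeR estimated. They hold no differences between libraries that many genes share, so they cannot rate the DESeq2 calls of Il21r and Il9r.

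By direction alone, 25 of the 33 genes had a log2 fold change above 0, where 54.1% of all genes tested did. The median log2 fold change was 0.42 over the 33 genes and 0.03 over all genes tested. By use it was 0.71 for the 10 lymphoid genes tested, 0.43 for the 10 of endothelial or wide use, 0.44 for the 6 of epithelial, neural or other use and -0.22 for the 7 myeloid genes. Without WT replicate 2 these medians were 0.998, 0.675, 0.739 and 0.007 in the same order, 0.67 over all receptor genes tested and -0.0043 over all genes tested, so the median of the myeloid genes was not below 0 without that library. All 10 genes of endothelial or wide use and 9 of 10 lymphoid genes were above 0, against 2 of 7 myeloid genes. Every KO library lay above every WT library for 4 of the 33 genes, Il21r, Il9r, Il2rb and Il27ra, all of lymphoid use, where this held for 8.59% of all genes tested. Of these, Il9r passed the filter through its KO libraries alone. The opposite order was found for 0 of the 33 and for 9.2% of all genes tested. With 3 libraries against 3, an exact two-sided permutation test of 1 gene cannot give a p below 0.1.

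**Figure D2:**
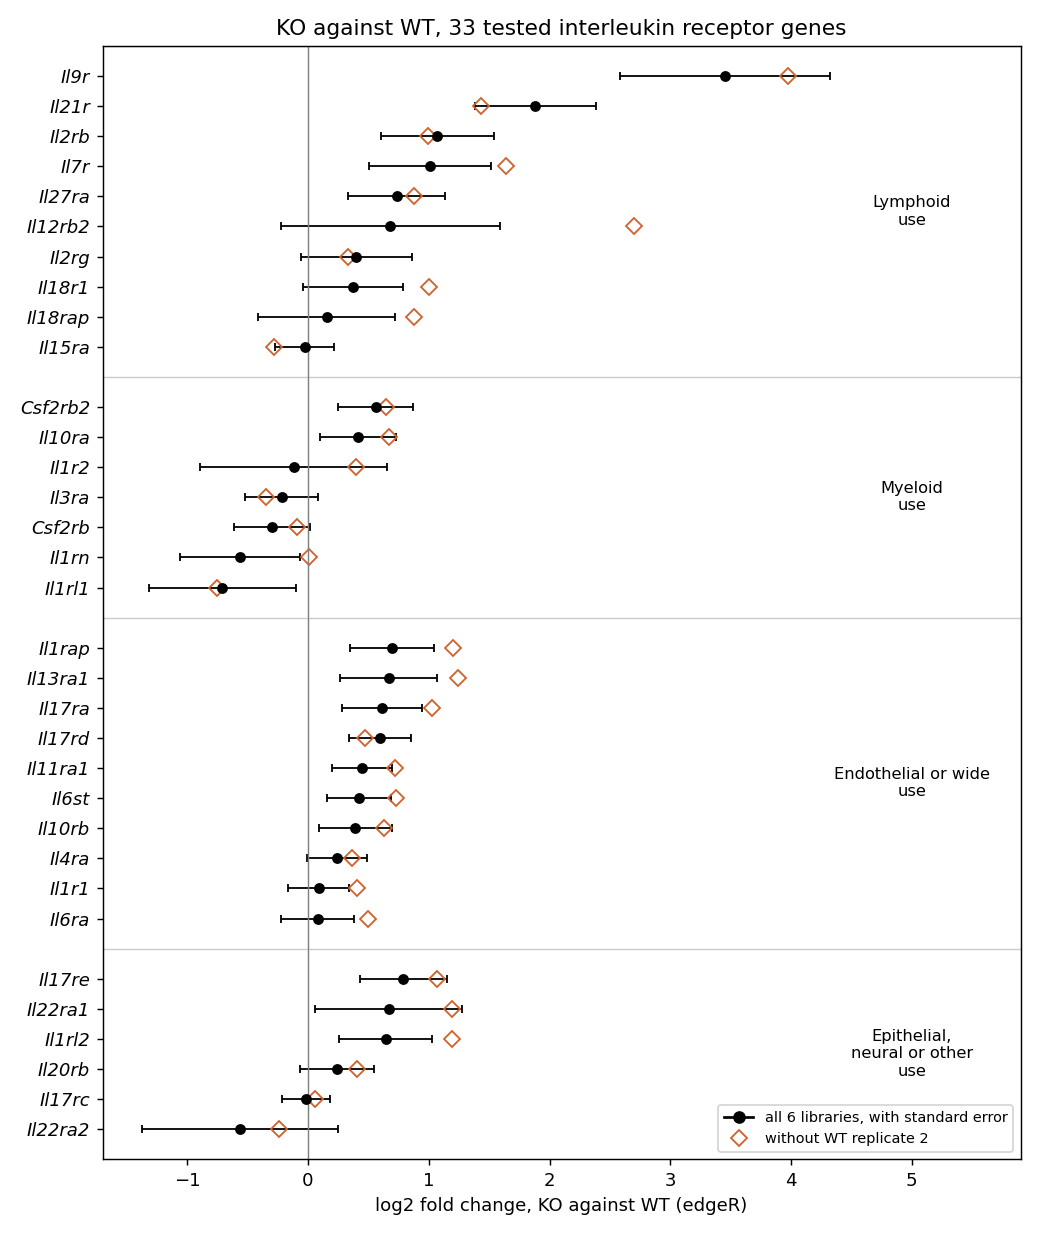
Log2 fold change between KO and WT for the 33 tested genes, grouped by use (edgeR, points with standard error, all 6 libraries), and the same without WT replicate 2 (open diamonds). Il9r (3.45) and Il21r (1.88) stand to the right, most myeloid genes lie left of 0, and the diamonds of Il1rap, Il13ra1, Il17ra and Il1rl2 lie near or above 1.

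The receptor for IL-21, which acts on B and T cells, was among the lymphoid genes whose groups did not overlap. Il21r (chromosome 7, 125603429 to 125633570, GRCm38) was at 0.808, 0.264 and 1.22 CPM in WT replicates 1 to 3, against 3.27, 2.46 and 2.55 CPM in KO replicates 1 to 3. Every KO library was thus above the highest WT library, and WT replicate 2 was the lowest of all. In edgeR this gave a log2 fold change of 1.88 (SE 0.50, adjusted p = 0.307), and in DESeq2 one of 1.85 (adjusted p = 0.0374). Over the 15 alternative settings that gave a value, the log2 fold change ran from 1.43 to 2.31 and the adjusted p from 0.0374 to 0.732. In bulk RNA, fewer cells of a type and less RNA per cell cannot be told apart.

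Il9r (chromosome 11, 32187541 to 32200279), the IL-9 binding chain of T cells, B cells and mast cells, rests on few reads, 0, 7 and 5 counts in WT and 23, 61 and 37 counts in KO. This came to 0, 0.206 and 0.234 CPM in WT and 0.989, 2.24 and 1.28 CPM in KO, so the groups did not overlap. EdgeR gave a log2 fold change of 3.45 (SE 0.87) at an adjusted p = 0.287 and DESeq2 one of 3.43 at an adjusted p = 0.00483, with 2.76 to 4.16 and adjusted p-values from 0.000542 to 0.702 over 15 alternatives. Of their ligands, Il9 had 0 counts and Il21 had 3 counts over the 6 libraries.

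The IL-2 receptor chains were low as well. Il2rb, the beta chain of the IL-2 and IL-15 receptors on T and NK cells, measured 0.710, 0.499 and 0.328 CPM in WT against 0.903, 1.54 and 0.862 CPM in KO (log2 fold change 1.07, SE 0.47, adjusted p = 0.491, edgeR). Il2ra, the high-affinity alpha chain known as CD25, had 6 counts in WT and 38 counts in KO, a ratio of 7.68 per scaled library size (95% exact interval 3.22 to 22.2, counting error only). Both genes had every KO library above every WT library, and neither difference passed a test over all genes (DESeq2 adjusted p = 0.536 for Il2rb and 0.256 for Il2ra).

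Among the other chains of this family the groups overlapped. Il7r, which binds IL-7 and serves naive and memory T cells and innate lymphoid cells, measured 0.490, 1.70 and 0.796 CPM in WT against 2.62, 1.40 and 2.04 CPM in KO (log2 fold change 1.01, SE 0.51, adjusted p = 0.531, edgeR). The common gamma chain Il2rg, which per kb exceeded Il7r 12-fold to 45.5-fold in the 6 libraries, was uneven, at 6.41, 15.2 and 27.0 CPM in WT against 27.8, 16.5 and 19.6 CPM in KO (log2 fold change 0.40, SE 0.46). The highest Il2rg level in WT, in replicate 3, was close to the highest in KO, and the spread of WT was wider than that of KO. Il15ra, which presents IL-15 on many cell types, measured 5.11 ± 1.42 CPM in WT against 5.01 ± 0.317 CPM in KO (SD, n = 3), and its log2 fold change was -0.03.

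**Figure D3:**
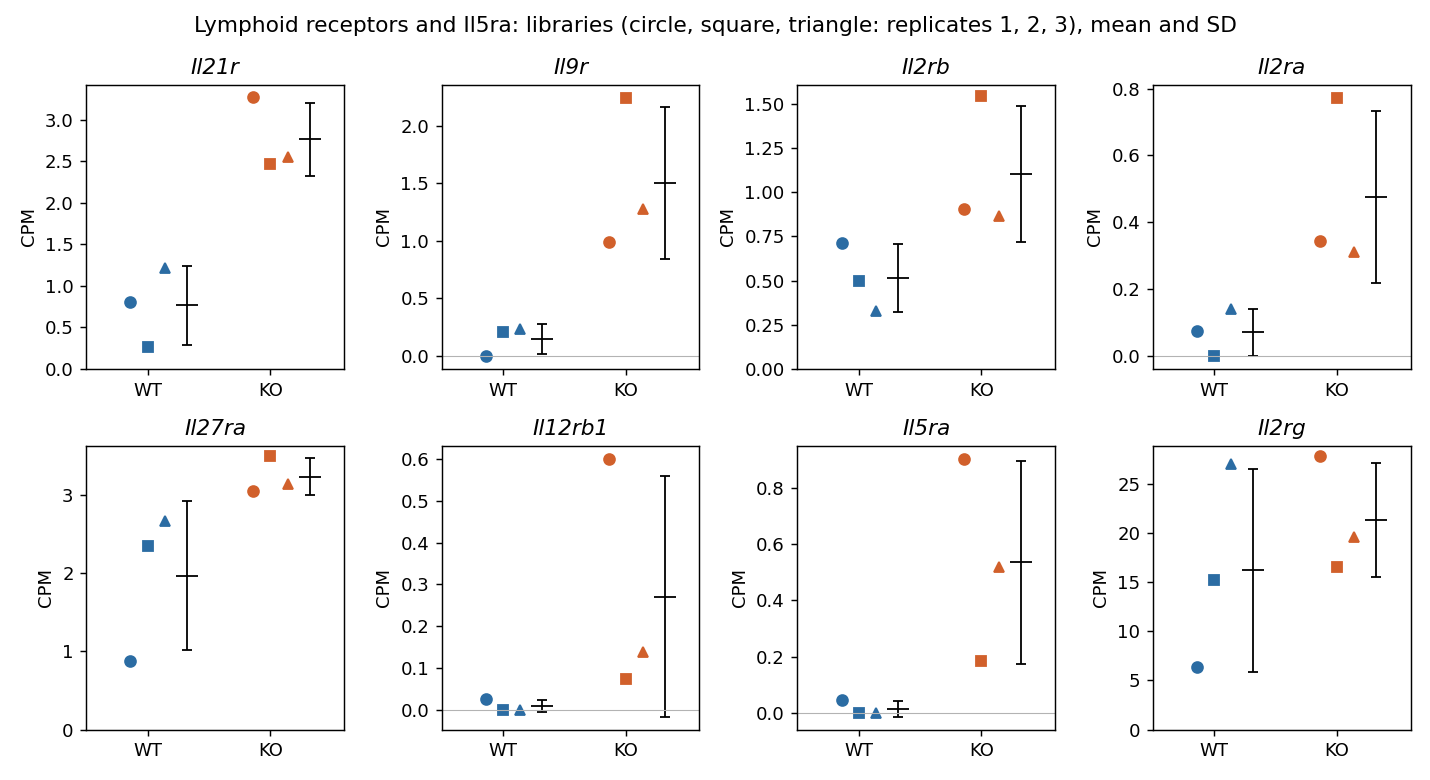
CPM of 7 receptor genes whose KO libraries all lie above the WT libraries, and of Il2rg, which is shared by several of them, in each library (symbols), with the mean and SD of the group (bars, n = 3). These 7 of the 38 genes are shown because of this order, which held for 8.35% of the genes with at least 10 counts. Il2ra, Il12rb1 and Il5ra reached that minimum only through KO, and Il9r passed the edgeR filter through KO alone. Il21r is at 2.46 CPM or more in each KO library and at most 1.22 CPM in WT, whereas the Il2rg points of both groups overlap.

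Among receptors of the IL-12 family, the groups did not overlap for Il27ra and Il12rb1 and overlapped for Il12rb2. Il27ra, the IL-27 receptor of T and B cells, measured 0.881, 2.35 and 2.67 CPM in WT against 3.05, 3.50 and 3.14 CPM in KO (log2 fold change 0.73, SE 0.40, adjusted p = 0.557, edgeR). Il12rb1, the chain shared by IL-12 and IL-23, had 1 count in WT and 20 counts in KO, 14 of them in KO replicate 1, for a ratio of 24.2 (95% exact interval 3.88 to 1000). Il12rb2, the second IL-12 chain, measured 0.0734, 1.06 and 0.141 CPM in WT against 0.946, 0.699 and 0.448 CPM in KO, so WT replicate 2 exceeded all others. With the untested genes included, Il2ra, Il12rb1 and Il5ra also had every KO library above every WT library, an order found for 8.35% of the 18748 genes with at least 10 counts. These 3 genes reached the minimum of 10 counts only through their KO libraries. Their order, ratios and intervals are thus descriptions, and nothing is read from them or from the count of such genes. The intervals pool reads over the libraries of a group and leave out the spread between libraries.

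The chains of the IL-18 receptor lay at unequal levels. Il18r1, the IL-18 binding chain, measured 23.5, 70.2 and 27.5 CPM in WT against 50.4, 67.2 and 39.2 CPM in KO, and its WT mean per kb was the highest of the lymphoid genes. Its WT replicate 2 was above every KO library and its WT replicates 1 and 3 were below, the order of the summed alveolar type II markers. The summed B and T cell markers were below every KO library in each WT library. Sorting by use does not name the cells that gave the reads, and this was not tested. Il18rap, the accessory chain needed for signaling and typical of T and NK cells, measured 0.612 to 2.11 CPM in WT against 0.759 to 1.81 CPM in KO. Per kb of exon, Il18r1 exceeded Il18rap 39.1-fold to 72.4-fold in each of the 6 libraries. Other pairs of lymphoid use were as unequal in some libraries. Il2rg exceeded Il2rb 10.5-fold to 96-fold, Il21r 9.33-fold to 80.3-fold, and Il9r 15.3-fold to 239-fold where Il9r had counts. Neither gene was called (log2 fold changes 0.37 and 0.16, adjusted p = 0.754 and 0.935, edgeR).

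Markers of lymphocytes are given beside these receptors. The 12 B cell markers summed to 16.8 to 38.5 CPM in WT and 127 to 139 CPM in KO. Of these, 11 had every KO library above every WT library, 3 were called by edgeR (Ms4a1, Fcrla and Cd79a), 9 by DESeq2, and none was at 0. The shares over all genes tested were 8.59% for this order of libraries, 0.109% for edgeR calls and 0.569% for DESeq2 calls of higher genes. The 10 T cell markers summed to 4.55 to 7.54 CPM in WT and 10.2 to 14.96 CPM in KO, with 5 of the 9 tested separated upward, 1 separated downward (Lat) and 0 called by either tool. The 7 NK cell markers summed to 1.27 to 2.26 CPM in WT and 1.73 to 3.01 CPM in KO, so the groups overlapped, with 0 called by either tool. The part of these cells in the lymphoid receptor values was not tested.

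The 7 myeloid genes tested had log2 fold changes from -0.71 to 0.56, with no call, and Il5ra, which was not tested, is given after them. Il3ra, which binds IL-3 on basophils, dendritic cells and also ECs, measured 8.15, 10.8 and 18.9 CPM in WT against 12.6, 9.86 and 9.86 CPM in KO (log2 fold change -0.22, SE 0.30). Il1rn, the IL-1 receptor antagonist, measured 5.43, 20.9 and 11.2 CPM in WT against 11.7, 8.98 and 4.73 CPM in KO (log2 fold change -0.56, SE 0.50). Its groups overlapped, and without WT replicate 2 the log2 fold change was 0.01. Il1rl1, the IL-33 receptor ST2 of mast cells and type 2 lymphoid cells, measured 1.12 ± 0.359 CPM in WT against 0.672 ± 0.505 CPM in KO. Il1r2, a decoy receptor for IL-1 carried by neutrophils, measured 1.40 ± 1.01 CPM in WT against 1.27 ± 0.910 CPM in KO, and Il10ra, the IL-10 binding chain of leukocytes, measured 2.19 ± 0.704 and 2.92 ± 0.561 CPM (SD, n = 3 each).

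The common beta chain and its mouse copy had log2 fold changes of opposite sign. Csf2rb measured 8.03, 16.2 and 13.0 CPM in WT against 13.8, 7.17 and 9.38 CPM in KO, whereas Csf2rb2, a mouse-specific copy that serves IL-3, measured 1.71, 2.61 and 2.53 CPM in WT against 4.56, 2.58 and 2.97 CPM in KO. Each gene overlapped between the groups, with log2 fold changes of -0.30 (SE 0.32) and 0.56 (SE 0.31). Their ratio per kb did not overlap, at 4.54 to 5.99 in WT and 2.70 to 3.06 in KO, a pair picked out after its values were seen. Reads that fit both copies were not counted, so both levels are uncertain.

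Il5ra, the IL-5 receptor of eosinophils and B-1 cells, had 2, 0 and 0 counts in WT and 21, 5 and 15 counts in KO, a ratio of 24.8 (95% exact interval 6.45 to 212, counting error only). Il5ra reached the minimum of 10 counts only through its KO libraries, so this ratio and its interval are descriptions. DESeq2 gave Il5ra an adjusted p of 0.0632. The 9 mast cell and eosinophil markers summed to 5.61 to 8.40 CPM in WT and 4.89 to 8.38 CPM in KO, with Epx at 0. Of these, Ccr3, a chemokine receptor of eosinophils with 43 counts over the 6 libraries, was not tested and had every KO library above every WT library. It measured 0, 0.264 and 0 CPM in WT against 0.473, 0.331 and 0.483 CPM in KO. This order held for 8.35% of the genes with at least 10 counts. Every other marker of this list overlapped between the groups, and 0 of the 5 tested had the order of Ccr3. The B cell markers given above had the same order in 11 of 12. The 10 macrophage markers summed to 77.5 to 165 CPM in WT and 119 to 215 CPM in KO, and the 8 neutrophil markers to 30.6 to 82.0 and 52.9 to 60.4 CPM. The part of these cells, B cells included, in the Il5ra and other myeloid values was not tested.

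For most genes of endothelial or wide use WT replicates 1 and 3 lay below KO, while WT replicate 2 lay near the KO libraries. Il6st (chromosome 13, 112464070 to 112510086) measured 168, 328 and 193 CPM in WT against 304, 325 and 291 CPM in KO. Il13ra1 measured 47.8, 144 and 63.8 CPM in WT against 133, 170 and 103 CPM in KO. Il1rap, the accessory chain for IL-1, IL-33 and IL-36, measured 12.9, 32.9 and 15.03 CPM in WT against 28.7, 40.2 and 29.5 CPM in KO. Il17ra, the common IL-17 receptor chain, measured 6.76, 18.0 and 10.6 CPM in WT against 15.7, 21.1 and 17.2 CPM in KO. For 8 of the 10 genes WT replicates 1 and 3 were both below every KO library, and for 9 of the 10 WT replicate 2 was the highest WT library. Over all genes tested the corresponding shares were 23.0% and 38.4%. WT replicates 1 and 3 were also both below every KO library for 7 of 10 lymphoid and 2 of 7 myeloid genes. The same held for 4 of 6 genes of epithelial, neural or other use and 21 of all 33 receptor genes tested. This order was thus not particular to endothelial or wide use. WT replicate 2 was the highest WT library for 24 of the 33, with 4 of 10 lymphoid and 5 of 7 myeloid genes among them.

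With all 6 libraries none of the genes of endothelial or wide use was called, and their log2 fold changes ran from 0.08 (Il6ra) to 0.69 (Il1rap). Without WT replicate 2, edgeR called 5 of the 34 interleukin receptor genes tested, all higher in KO, against 4.41% of all genes. They were Il1rap (log2 fold change 1.20, SE 0.20, adjusted p = 0.0245), Il13ra1 (1.24, 0.24, 0.0359), Il1rl2 (1.19, 0.24, 0.0383), Il17ra (1.03, 0.23, 0.0483) and Il6st (0.73, 0.17, 0.0485). With all 6 libraries their adjusted p-values were 0.532, 0.584, 0.583, 0.551 and 0.598, and over the 16 alternatives the highest reached 0.832 to 0.865. As given above, the alveolar type II markers also had WT replicates 1 and 3 below every KO library, and their part in these values was not tested.

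**Figure D4:**
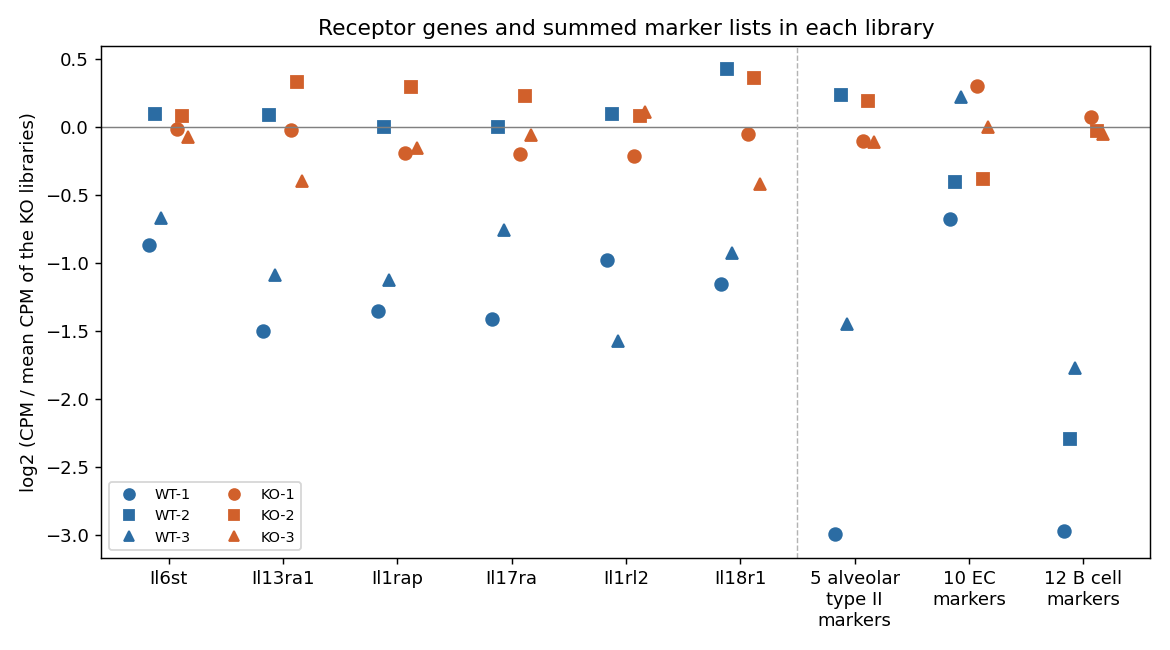
Log2 ratio of each library to the mean of the KO libraries (y axis) for 6 receptor genes and for the summed CPM of 3 marker lists, with WT in blue, KO in orange and the symbol shape giving the replicate. WT replicate 2 (blue squares) sits among or just above the KO libraries for the 6 receptor genes and the alveolar type II markers, while WT replicates 1 and 3 sit below them.

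Like Il6st, Il13ra1, Il1rap and Il17ra, the remaining genes of endothelial or wide use overlapped between WT and KO. Il4ra measured 49.01, 90.6 and 85.0 CPM in WT against 104, 74.8 and 86.4 CPM in KO (log2 fold change 0.24, SE 0.25). Il1r1, the signaling receptor for IL-1 on ECs, measured 21.9 ± 8.26 CPM in WT against 23.4 ± 2.98 CPM in KO, and Il6ra, which binds IL-6, measured 23.2 ± 10.9 and 24.5 ± 2.62 CPM (SD, n = 3). Il10rb, shared by IL-10 and IL-22, was at 32.04 ± 13.1 and 42.0 ± 5.05 CPM, and Il11ra1, the IL-11 binding chain, at 10.1 ± 3.48 and 13.8 ± 1.52 CPM. In each of these pairs the WT spread was wider than the KO spread and the groups overlapped. Il11ra1 has a near-identical copy, Il11ra2, at 0 counts, so reads shared by the copies are missing from both.

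Il17rd, a membrane protein of the IL-17 receptor family that also restrains FGF signaling, had another order of libraries. It measured 10.7, 11.1 and 16.8 CPM in WT against 23.6, 13.8 and 20.7 CPM in KO, so WT replicates 1 and 2 were the lowest libraries and KO replicate 2 was the 1 KO library inside the WT range. This gave a log2 fold change of 0.60 (SE 0.25, unadjusted p = 0.0479, adjusted p = 0.482, edgeR) and 0.41 to 0.81 over the alternatives, none of which called it. Il17rd and Il3ra are the genes of this set on chromosome 14, at 20.7 and 33.4 Mb from Gm41148, the putative mouse leene gene.

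Receptors of epithelial or other use had their highest WT level per kb in Il17rc, the partner of Il17ra for IL-17A, at 8.76 ± 1.17 CPM in WT against 8.66 ± 1.67 CPM in KO (SD, n = 3). Il17re, the IL-17C receptor of epithelium, measured 4.19, 8.43 and 5.76 CPM in WT against 7.87, 15.9 and 7.97 CPM in KO (log2 fold change 0.79, SE 0.36). Il1rl2, the IL-36 receptor, measured 4.46, 9.40 and 2.95 CPM in WT against 7.61, 9.31 and 9.49 CPM in KO. For all 6 tested genes of this group WT replicate 2 was the highest WT library. Il20rb, a chain for IL-20 and IL-24, was at 1.62 ± 0.401 CPM (WT) and 1.93 ± 0.237 CPM (KO), and Il22ra1, Il22ra2, Il20ra and Il1rapl1 stayed under 1 CPM in every library. Il20ra had 13 counts in WT against 15 counts in KO (ratio 1.40, 95% exact interval 0.621 to 3.19), and Il1rapl1, a synaptic adhesion protein, had 10 against 2 (ratio 0.242, interval 0.0258 to 1.14).

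Chains that act together were compared per kb of exon within each library. Il6st exceeded Il6ra 8.45-fold, 7.15-fold and 8.15-fold in WT and 10.7-fold, 9.28-fold and 9.38-fold in KO, and exceeded Il11ra1 8.07-fold to 10.2-fold over the 6 libraries. Il13ra1 exceeded its partner Il4ra 1.21-fold to 3.68-fold, and Il10rb exceeded Il10ra 10-fold to 19.1-fold. The ratio of Il1rap to Il1r1 was 0.419, 0.585 and 0.491 in WT and 0.603, 1.0 and 0.788 in KO. The ratio of Il17ra to Il17rc was 0.268, 0.552 and 0.387 in WT and 0.712, 0.650 and 0.580 in KO. The ratios of Il6st to Il6ra, Il1rap to Il1r1 and Il17ra to Il17rc thus lay above the WT range in every KO library, an order seen after the values were known and not tested. Csf2rb was below Il3ra in every library, at 0.202 to 0.438 of its level.

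Neighbours on a chromosome had fold changes of both signs. On chromosome 1, from 40074079 to 40551705, Il1r2, Il1r1, Il1rl2, Il1rl1, Il18r1 and Il18rap follow each other with log2 fold changes of -0.12, 0.09, 0.64, -0.71, 0.37 and 0.16. Il1rl1 and Il18r1 are 137 bases apart, and Il17re and Il17rc on chromosome 6 are 669 bases apart with 0.79 and -0.02. Il4ra ends 23955 bases before Il21r on chromosome 7, with 0.24 against 1.88. The counting used strand and dropped reads that overlapped several genes.

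Ligands and signaling genes outside the rule were counted by list, and edgeR called 0 of them in each list, as did DESeq2. Of 38 interleukins and related ligands 13 were tested (median log2 fold change 0.18) and 11 had 0 counts. At an unadjusted p under 0.05 there was 1 gene, Il1b, at 3.13, 10.4 and 2.44 CPM in WT against 1.59, 2.65 and 1.90 CPM in KO (log2 fold change -1.39, SE 0.56, adjusted p = 0.468). Without 1 library in turn its log2 fold change ran from -1.73 to -0.49.

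Most signaling genes had log2 fold changes below 0, where 54.1% of all genes tested were above 0 and their median was 0.03. Of the 10 tested receptor kinases and STATs 3 had a log2 fold change above 0 (median -0.10), and of the 8 SOCS genes, which inhibit these kinases, 0 had (median -0.17). Stat3, the main factor downstream of gp130, measured 124, 123 and 114 CPM in WT against 91.0, 89.6 and 91.9 CPM in KO (log2 fold change -0.41, SE 0.12, adjusted p = 0.365, edgeR). Socs3, a STAT3 target that binds gp130, measured 17.9 ± 2.33 CPM in WT against 12.5 ± 0.926 CPM in KO (-0.52, SE 0.15, adjusted p = 0.343). Every KO library was below every WT library for both genes, and also for Stat2, Socs2 and Myd88. This order was found for 2 of the 10 kinases and STATs tested, 2 of the 8 SOCS genes and 1 of the 13 adaptors. Over all genes tested the share was 9.2%. Stat2 and Socs2 had log2 fold changes of -0.30 and -0.34 (edgeR adjusted p = 0.482 and 0.470). Of the 13 adaptors of IL-1 and IL-17 signaling 5 were above 0 (median -0.06), with Myd88 at 23.0 ± 3.05 CPM in WT against 18.4 ± 0.159 CPM in KO (adjusted p = 0.477).

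Cytokine receptors of related families had mostly positive log2 fold changes. Of 17 tested, 15 had a log2 fold change above 0 with a median of 0.56, 5 had every KO library above every WT library (8.59% of all genes tested), and 6 were higher in KO at an unadjusted p under 0.05 (5.62% of all genes tested). Their summed level was 284.9, 628.3 and 430.4 CPM in WT against 571.1 to 608.3 CPM in KO, so WT replicate 2 was above every KO library and WT replicates 1 and 3 were below. Lifr, which pairs with gp130 for LIF, measured 34.5, 59.1 and 51.1 CPM in WT against 71.5, 65.3 and 78.2 CPM in KO (log2 fold change 0.57, SE 0.20, adjusted p = 0.428, edgeR). Cntfr, the CNTF binding chain, measured 0.783, 4.96 and 1.92 CPM in WT against 4.69, 9.53 and 7.66 CPM in KO (log2 fold change 1.51, edgeR adjusted p = 0.468), and Epor, the erythropoietin receptor, 1.08, 0.646 and 1.08 CPM against 1.80, 1.47 and 2.90 CPM (1.15, edgeR adjusted p = 0.412).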

How the data were processed

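PolyA-enriched, stranded RNA-seq libraries of 3 WT and 3 KO EC-enriched lung samples were analysed. The files deposited by the authors hold unnormalized counts for each gene, made with featureCounts 2.0.0 per the file headers on uniquely aligned reads, in the reverse orientation, on the GRCm38 gene models of Ensembl release 84. The submitters' processing notes name STAR 2.5.4b, bcl2fastq 2.18 and mm10. Symbols came from GENCODE M21 of the same build (47224 of 47729 genes matched).

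Counts were filtered with filterByExpr, scaled by TMM and tested with edgeR 4.0.16 (glmQLFit and glmQLFTest, default options, R 4.3.3), with genotype as the only term and Benjamini-Hochberg adjustment over 14625 genes. Standard errors were derived from the F statistic. All pairs of libraries differed by more than sampling noise (chi-square over degrees of freedom at least 40.3). P-values measure the spread between libraries, which the labels do not tie to separate mice. The alternatives were DESeq2 1.42.0, limma-voom (limma 3.58.1), legacy set to FALSE, RLE, upper-quartile and total-count scaling, mitochondrial genes left out, no filter, at least 10 counts in every library, a replicate block and each library left out. The tests were tried on simulated counts first, with 200 of 14625 genes changed at a log2 fold change of 1.5. At an adjusted p under 0.05 edgeR made 6 false calls among 150 and DESeq2 made 64 among 228. With no gene changed edgeR made 0 calls and DESeq2 made 12, so DESeq2 was the less strict tool on these simulated counts. The counts were drawn gene by gene with edgeR's estimate of spread and hold no differences between libraries that many genes share.

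The genes, their sorting by use and the lists were chosen with earlier results of these data known. Values in every library were given for genes with an unadjusted p under 0.05 in edgeR or a DESeq2 call, for the genes with the highest level per kb in each use, and, beyond this rule and with their values known, for others that a comparison needs. Genes of the lists were named at an unadjusted p under 0.05, at most 3 a list by size of change. Intervals cover counting error only. Exact permutation tests of single genes were not run, since their smallest p is 0.1.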

Additional observations from a re-analysis of the deposited data

How the results depend on the processing

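The number of interleukin receptor genes called was 0 with limma-voom (5 at an unadjusted p under 0.05), legacy set to FALSE, RLE and upper-quartile scaling, mitochondrial genes left out, and at least 10 counts in every library. It was 2 with DESeq2 and 2 without a filter on low counts (Il21r and Il9r each time), 1 with total-count scaling (Il9r), and 0 to 5 with a library left out, the 5 without WT replicate 2. Their median log2 fold change moved from 0.42 to 0.51 with limma-voom, to 0.31 with total-count scaling, and to 0.20 to 0.67 with a library left out (0.20 without WT replicate 1, 0.67 without WT replicate 2). Total-count scaling shifted the median of all genes by -0.17. Over all genes the count of 16 became 187 with DESeq2, 26 with limma-voom and with RLE, 31 with upper-quartile scaling, 123 with total-count scaling (61 higher, 62 lower, against 5 and 11), 152 without a filter, and 0 to 791 with a library left out (791 without WT replicate 2, 0 without any one KO library, where 986 to 1112 genes had an unadjusted p under 0.05). The cause of these changes was not tested.

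The replicate block gave 0 calls over all genes (1776 at an unadjusted p under 0.05, against 1506 in the main fit). Among the receptor genes it gave 0 calls (8 at an unadjusted p under 0.05, against 3, and a median of 0.50). Deviations of same-numbered libraries correlated at -0.08, 0.22 and 0.01, and only the libraries numbered 2 correlated best with each other. Over all pairs the values ran from -0.185 to 0.219. Deviations within a group sum to 0, so these values cannot decide whether same-numbered libraries belong together. The labels give only the number.

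Of 521 recomputed fold changes of single genes 486 kept their direction and side of the threshold, 10 passed it and 25 changed sign, in 8 genes. With total-count scaling Il1r1 was at -0.0591 and Il6ra at -0.038. With limma-voom Il15ra was at 0.00759 and Il1r2 at 0.35, and with the replicate block at 0.00845 and 0.0195. With a library left out the ranges were -0.0704 to 0.41 (Il1r1), -0.15 to 0.50 (Il6ra), -0.16 to 0.11 (Il17rc), -0.28 to 0.15 (Il15ra), -0.18 to 0.88 (Il18rap), -0.46 to 0.17 (Il3ra), -0.94 to 0.00652 (Il1rn) and -0.89 to 0.40 (Il1r2). Genes under 1 CPM rest on fewer than 41 counts a library.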
